A study of Mus musculus with 14 samples.

Results

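The mouse relatives of the fly gene sine oculis encode homeobox transcription factors, and open chromatin around 5 of them, Six2, Six3, Six4, Six5 and Six6, was examined in mouse neural stem cells with and without the ZFTA-RELA fusion. These 5 genes were taken by name from 21883 protein-coding genes of the mouse RefSeq annotation (assembly GRCm38.p6, the coordinates of mm10). Every deposited ATAC-seq peak that overlapped one of the gene bodies or lay within 50 kb of it was used. Overlapping peaks of all 14 peak lists were merged into 127850 regions, of which 51 lay in these windows. The window of Six2 held 21 regions, that of Six3 14, Six4 7, Six5 13 and Six6 5. Six2 and Six3 are neighbours on chromosome 17, 36.5 kb apart, and 9 regions belonged to both of their windows.

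The proteins of this family bind DNA through a homeodomain and a neighbouring domain named after the family. Eya proteins join some of them as coactivators with phosphatase activity, while Dach and Groucho (Tle) proteins act as corepressors. Six2 is known for keeping kidney nephron progenitors undifferentiated, Six3 and Six6 for patterning the anterior forebrain and the eye, Six4 for skeletal muscle formation, and Six5 for its place beside Dmpk, the gene of the repeat that causes myotonic dystrophy.

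ATAC-seq, which marks accessible DNA by the insertion of adapters with the transposase Tn5, was performed on 50000 cells per library, in 7 groups of 2 libraries. ZR denotes cells of the ZFTA-RELA line, labelled with the vehicle PBS, and EV cells of the Empty Vector line, whose replicate 1 is labelled with the vehicle DMSO and replicate 2 with PBS. ZR_GSK343 denotes ZFTA-RELA cells given 10 µM GSK343, an inhibitor of the histone methyltransferase EZH2, for 96 h. ZR_dmCitra denotes ZFTA-RELA cells titled dmCitra and given 10 mM citraconate, for 24 h or 48 h (the labels do not assign either time to a library), and ZR_DMSO ZFTA-RELA cells titled DMSO but labelled with PBS. Citraconate_50K libraries are labelled as the ZFTA-RELA line with 10 mM citraconate, and DMSO_50K libraries as Empty Vector with DMSO, so that treatment and cell line cannot be told apart between these 2 groups. The fusion links ZFTA, a zinc finger protein, with RELA, a subunit of NF-kB, and is a known driver of supratentorial ependymoma, and all cells were cultured neural stem cells of mouse brain. The labels name no clone and do not say whether replicates were separate cultures, so replicate spread may be technical.

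Several libraries stood apart over the whole genome. The ZR_DMSO lists were short, with 12554 and 21143 deposited peaks and median peak widths of 226 and 186 bp. ZR_GSK343 replicate 1 had 19513 peaks and replicate 2 57634, with medians of 330 and 260 bp. The other 10 libraries had 29574 to 60472 peaks and median widths of 419 to 533 bp. Of 8 neural stem cell markers (Sox2, Nes, Fabp7, Msi1, Sox9, Vim, Slc1a3 and Hes5), 5 and 5 had a gene-end peak (within 1 kb of either end of the gene) in ZR, 7 and 8 in EV, 4 and 6 in ZR_GSK343, 6 and 5 in ZR_dmCitra, 2 and 3 in ZR_DMSO, 4 and 3 in Citraconate_50K and 6 and 5 in DMSO_50K. Sox2, a defining marker, had such a peak in both EV libraries and in none of the other 12, including DMSO_50K, which carries the same cell line label as EV. No library had a peak at more than 1 of 4 microglial or 1 of 4 mesenchymal markers, while 1 to 4 of 4 neuronal markers had one.

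The start sites of the 5 genes differed in whether they were open at all, and the 250 bases upstream of 3 of them are shown for that reason, read in the direction of the gene, with each CpG in capitals. Six2 (mm10 chr17:85688255-85688504, minus strand) was covered by a peak in 12 libraries, Six3 (chr17:85620584-85620833, plus strand) in 4 and Six6 (chr12:72939632-72939881, plus strand) in 0. For Six4 (chr12:73113246-73113495, minus strand, covered in 11 libraries) the capitals mark instead a match to MEF3, the site that proteins of this family bind. All sequences are from RefSeq (GRCm38.p6).
Six2 upstream: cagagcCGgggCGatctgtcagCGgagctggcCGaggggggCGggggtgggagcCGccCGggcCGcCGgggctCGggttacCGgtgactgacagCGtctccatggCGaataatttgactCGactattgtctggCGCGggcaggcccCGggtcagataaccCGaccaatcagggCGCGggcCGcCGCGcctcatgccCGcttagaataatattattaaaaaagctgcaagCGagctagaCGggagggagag
Six3 upstream: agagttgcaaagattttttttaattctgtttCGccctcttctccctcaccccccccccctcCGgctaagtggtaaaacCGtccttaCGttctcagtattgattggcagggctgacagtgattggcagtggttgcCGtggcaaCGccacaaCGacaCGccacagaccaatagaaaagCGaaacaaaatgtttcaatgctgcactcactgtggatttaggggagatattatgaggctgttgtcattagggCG
Six6 upstream: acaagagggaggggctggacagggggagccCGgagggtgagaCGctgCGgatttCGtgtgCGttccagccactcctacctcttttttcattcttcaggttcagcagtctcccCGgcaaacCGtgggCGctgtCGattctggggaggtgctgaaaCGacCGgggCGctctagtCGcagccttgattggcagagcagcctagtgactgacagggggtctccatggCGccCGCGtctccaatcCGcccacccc
Six4 upstream: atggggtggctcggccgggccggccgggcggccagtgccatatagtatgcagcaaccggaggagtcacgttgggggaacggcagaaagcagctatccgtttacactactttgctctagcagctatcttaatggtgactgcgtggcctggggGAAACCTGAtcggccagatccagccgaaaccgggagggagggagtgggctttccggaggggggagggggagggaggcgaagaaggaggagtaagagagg

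The Six2 stretch held 26 CpGs, at percentile 90.4 of 32841 RefSeq promoters of the same length, and 64.8% of its bases were G or C. Six6, with no peak in any library, held 17 CpGs at 62.8% G or C, and Six3 10 CpGs at 48.8%. CpG number alone therefore did not order the 3 start sites by how many libraries had a peak there. On both strands, MEF3 (TCAGGTTTC) matched once in the Six4 stretch and in none of the other 4 genes, against 0.387% of all promoters with a match. AP-1 (TGANTCA) matched once in Six5 (6.75% of all promoters). An NF-kB pattern (GGG, any 5 bases, CC), overlapping matches counted, matched 4 times in Six2, 2 in Six5, 2 in Six6, once in Six4 and in no place in Six3, and 45.8% of all promoters hold a match. The NF-kB match of Six4 overlapped its MEF3 match.

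In ZR against EV, regions at Six2, Six3, Six4 and Six6 were gained and none at the 5 genes was lost. Lists were reduced to equal length by −log10 q, and a region was called gained where both ZR libraries had a peak and neither EV library did, and lost in the opposite case. Of 23 regions at Six2 to Six6, 10 were gained (43.5%) and 0 lost, against 21.5% gained and 19.6% lost of all 62395 regions. The background share of gained regions was close to 21.5% on the chromosomes concerned, at 20.8% on chromosome 12 and 21.7% on chromosome 17. With all 14 lists at the length of the shortest, 3 regions were gained, at the Six2 start site, 16.8 kb upstream of Six2 and 33.9 kb upstream of Six4. Without ZR replicate 2 or either EV library, 1 region was lost. No share of all regions is given for these other settings, so their counts cannot be set against a background. The windows held 20 and 21 peaks in ZR libraries and 12 and 11 in EV libraries (20.5 ± 0.707 and 11.5 ± 0.707, SD, n = 2 each), a difference of 9 peaks. The groups did not overlap, but the exact permutation test gave p = 0.333, the smallest that 2 libraries against 2 allow, here and in every such test below. Six2, Six3, Six4 and Six6 each had at least 1 gained region, and Six5 had none, beside 49.8% of all 18598 protein-coding genes with a region in their window. In bulk libraries such as these, fewer cells with an open site and less opening per cell cannot be told apart.

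**Figure D1:**
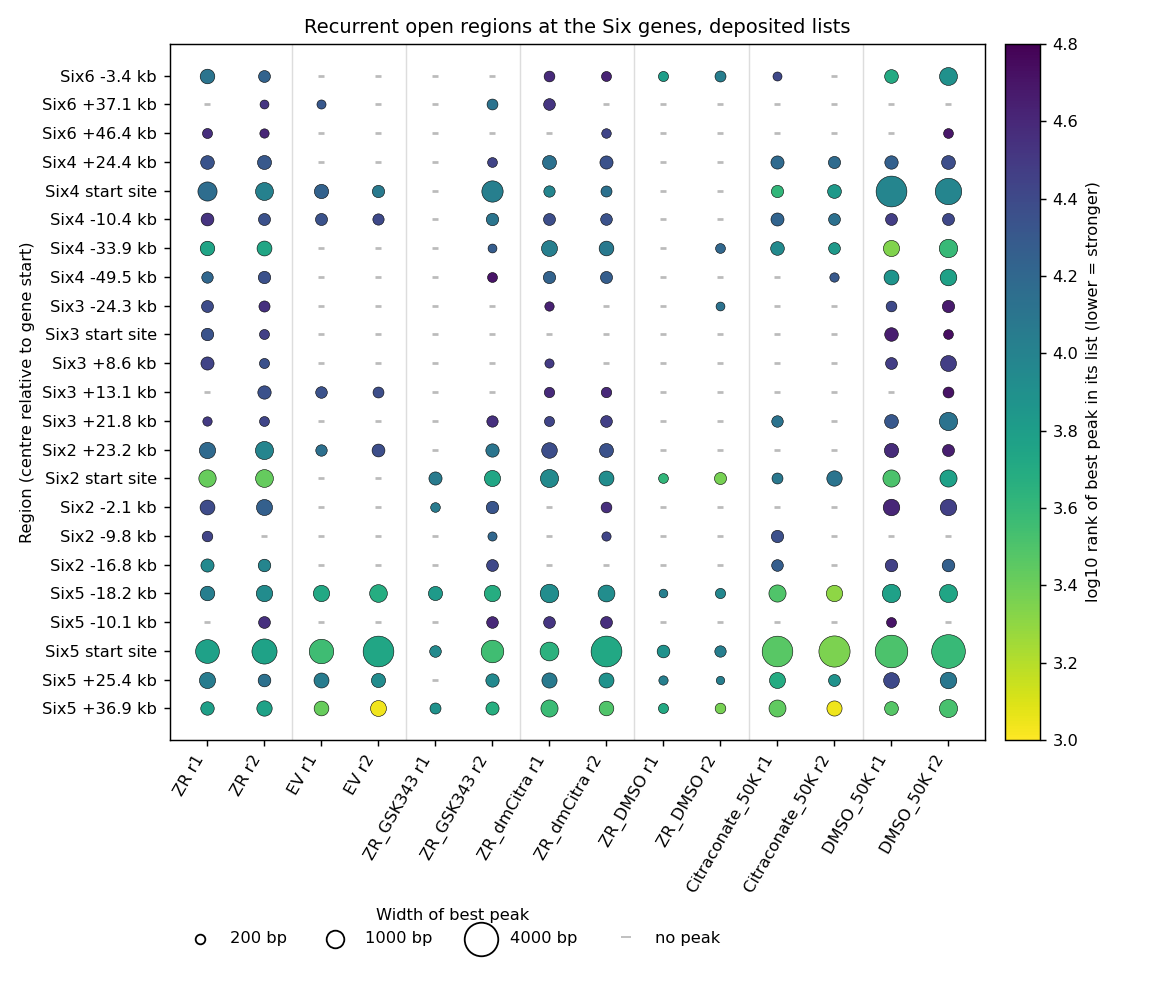
Regions at Six2 to Six6 with a peak in at least 4 of 14 libraries (23 of 51), by library; colour is the log10 rank of the region's best peak within its own deposited list (lower is stronger) and dot size is that peak's width. The EV columns lack the Six2 start site, the region 3.36 kb upstream of Six6 and the region 33.9 kb upstream of Six4 that are filled in ZR. The merged region at the Six5 start site is filled in every column.

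The Six2 start-site region (chr17:85687808-85688944, from the first bases of the gene into its upstream side) was the strongest of the 10 gained regions by rank. Ranks below run from 1, the highest −log10 q of a library, and tied peaks share the best rank. In ZR the peak ranked 2621 and 2652, and neither EV library had one. It ranked 11401 and 5423 in ZR_GSK343, 8774 and 8357 in ZR_dmCitra and 4143 and 2332 in ZR_DMSO. In Citraconate_50K it ranked 11931 and 12841, and in DMSO_50K 3222 and 6006. All 12 libraries outside EV thus had the peak, a pattern shared by 310 of 127850 regions (0.242%) and by no other of the 51. Peaks in all 12 of these libraries were found at 5610 regions, 4 of them among the 51, and 310 of these 5610 had none in EV. The pattern was picked out after the values were seen. The summit of the Six2 peak lay between 262 bases upstream and 18 bases downstream of the annotated start. The region also covers the near end of the lncRNA gene CJ186046Rik, so that the peak cannot be given to Six2 alone.

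Within the 12 libraries, the Six2 peak ranked poorer in both libraries of the first group than in both of the second in 3 comparisons. These were ZR_GSK343 and ZR_dmCitra, each against ZR_DMSO, and Citraconate_50K against DMSO_50K. The last pair differs in cell line label too, so treatment and line cannot be told apart there. The mean rank was 8412 in ZR_GSK343 and 3237.5 in ZR_DMSO (exact permutation p = 0.333). ZR_dmCitra averaged 8565.5 against the same ZR_DMSO libraries, and Citraconate_50K 12386 against 4614 in DMSO_50K (exact permutation p = 0.333 in each). Both first-group ranks were likewise poorer in 23.7%, 20% and 24.2% of all regions found in the 4 equal lists of these comparisons, each taken alone and in that order. The first 2 comparisons share ZR_DMSO, and ranks order peaks within a library, so that they do not measure a change in opening. The width of the peak at this site was 493 and 814 bp in ZR_GSK343 and 1068 and 676 bp in ZR_dmCitra, against 211 and 395 bp in ZR_DMSO, whose peaks were short throughout. In Citraconate_50K it was 300 and 725 bp, against 938 and 938 bp in DMSO_50K.

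Besides its start site, Six2 had gained regions on its upstream side, inside CJ186046Rik. The one centred 2.15 kb upstream (chr17:85689974-85690837) ranked 24351 and 18054 in ZR, was absent from EV, and appeared in both ZR_GSK343 libraries, ZR_dmCitra replicate 2 and both DMSO_50K libraries. The one centred 16.8 kb upstream (chr17:85704768-85705360) ranked 8929 and 9639 in ZR and was absent from EV, ZR_dmCitra and ZR_DMSO. It was present in ZR_GSK343 replicate 2 at 25545, in Citraconate_50K replicate 1 at 18684 and in DMSO_50K at 28166 and 18073. By contrast, a region at the far end of the Six2 body (chr17:85664503-85665594) was open in both groups: it ranked 15262 and 9639 in ZR and 13792 and 23605 in EV, with overlapping ranges.

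**Figure D2:**
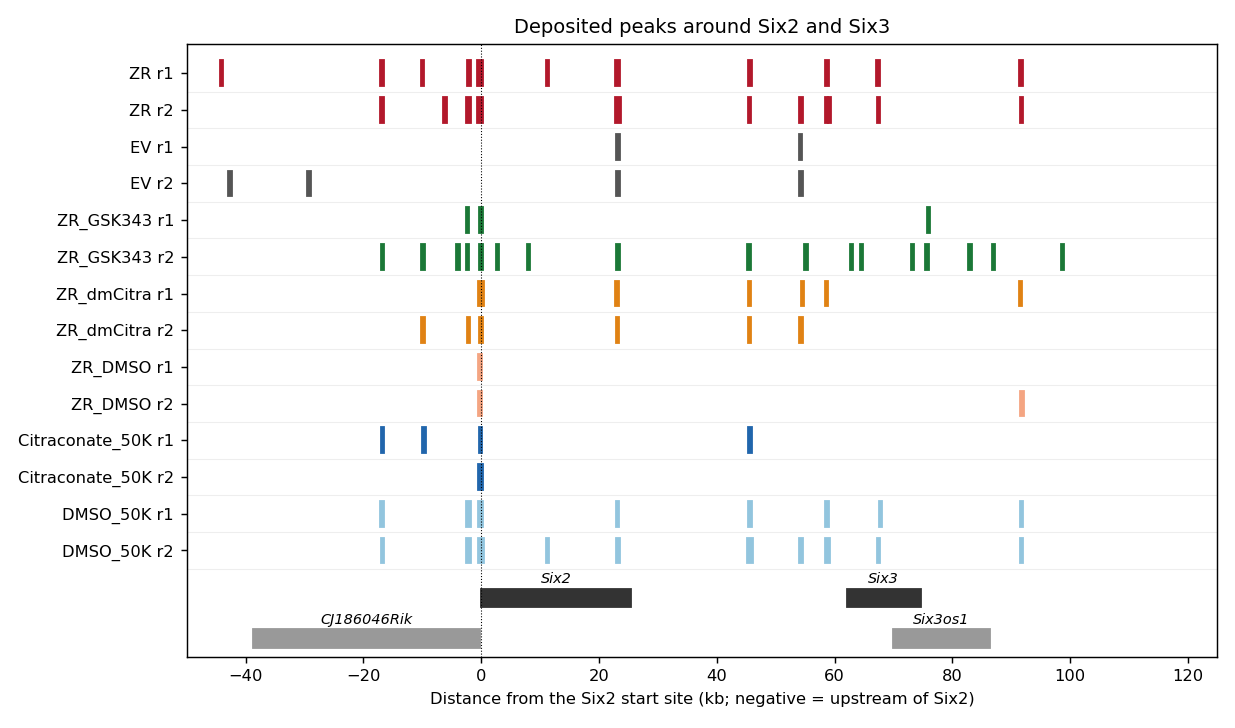
Deposited peaks around Six2 and Six3, by distance from the Six2 start site in kb (negative is upstream of Six2); each row is a library, each bar a peak drawn at least 0.6 kb wide, and gene bodies are below. A bar at 0 stands in all 12 libraries outside EV, and the Six3 start site, near 67 kb, has bars in the ZR and DMSO_50K rows alone.

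Six3 itself was open in few libraries. Its start-site region (chr17:85620221-85621067) ranked 21690 and 28900 in ZR and 45469 and 54307 in DMSO_50K, and no other library had a peak there. It was gained in ZR against EV, at ranks far poorer than those of the Six2 start site. Gained regions 2.85 kb (chr17:85629038-85629833) and 15.9 kb (chr17:85642052-85643142) beyond the Six3 body, on the side toward Six2, were weaker as well, with ZR ranks of 27526 and 22472 and of 31394 and 27064. A region between them (chr17:85633608-85634231) went the other way in presence: it was in ZR replicate 2 alone at 22472, and in both EV libraries at 22287 and 23605. Of the 14 regions of the Six3 window, 7 were in a single library, beside 38.9% of all 127850 regions and 23 of the 51. All 7 of those were in ZR_GSK343 replicate 2, which has more peaks than any other library titled ZFTA-RELA. No share of that library among the single-library regions of the whole genome is given. The 7 are therefore not read as a property of Six3 or of the inhibitor.

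Six6, which acts with Six3 in the eye and forebrain, had no peak over its start site in any library, but a region centred 3.36 kb upstream (chr12:72936004-72937039, 2.84 kb from the gene body) varied between groups. It ranked 12709 and 17167 in ZR and was absent from EV. No ZR_GSK343 library had it, including replicate 2 with its long list, whereas ZR_DMSO ranked it 6266 and 10954. ZR_dmCitra had it at 38201 and 41507, the weak end of those lists. Citraconate_50K had it in replicate 1 alone, at 25802, while DMSO_50K ranked it 5061 and 7881. Presence in both libraries of ZR, ZR_DMSO and ZR_dmCitra with absence from both ZR_GSK343 libraries was found for 338 of the 8246 regions in those 6 libraries (4.1%), and 268 of them (3.25%) were absent from EV too. This pattern was also picked out after the values were seen. The rest of the Six6 window held 4 regions, none of them in more than 4 libraries.

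**Figure D3:**
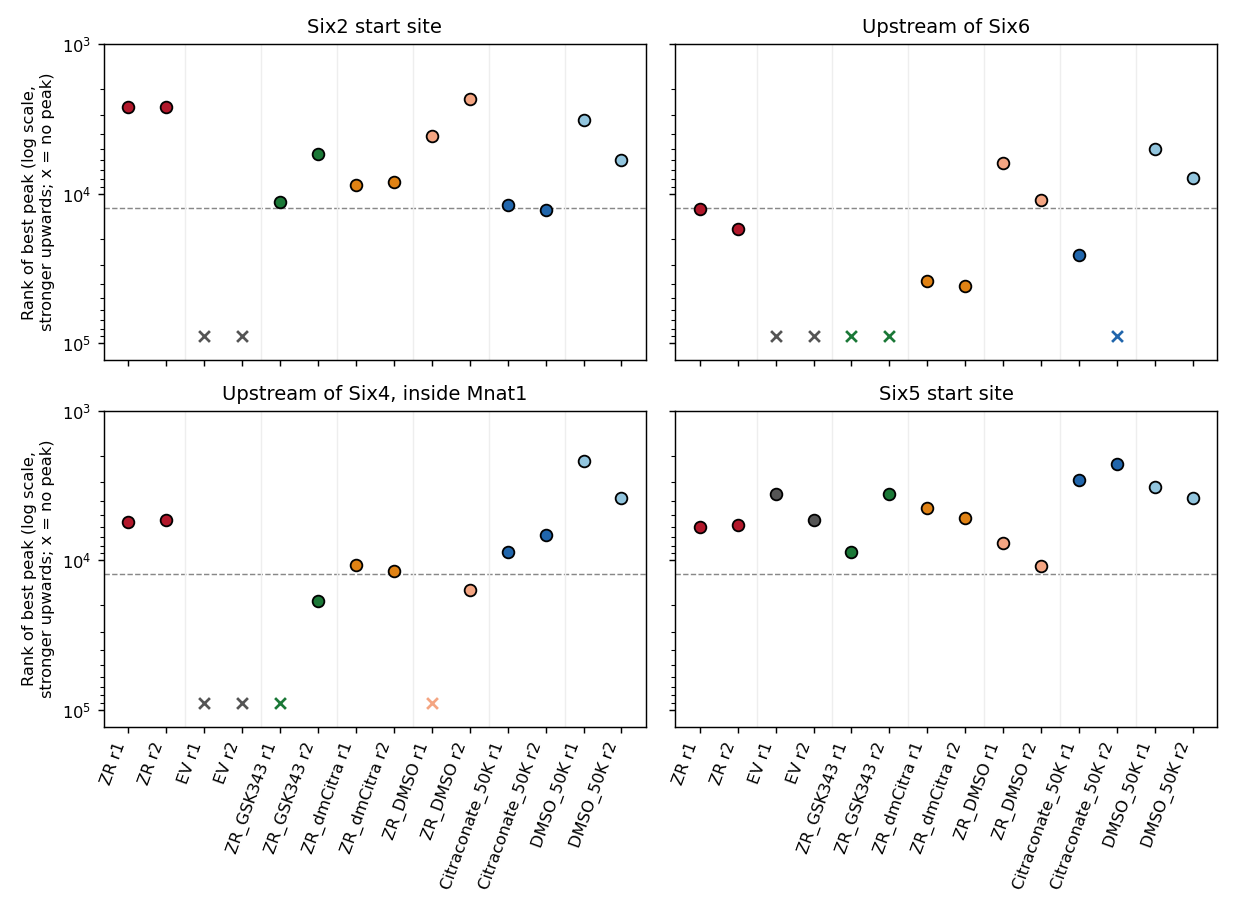
Rank of the best peak (log axis, stronger upwards) at 4 regions in each library; crosses mark libraries with no peak, and the dashed line is the length of the shortest list. Neither EV library has the Six2, Six6 or Six4 region, whereas the merged region at the Six5 start site ranks between 2265 and 10954 in all 14.

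At Six4, the start site was open with and without the fusion. Its region (chr12:73110196-73113746) reaches over the near end of Mnat1, which encodes a subunit of the CDK-activating kinase, so the 2 genes cannot be separated there. It ranked 14547 and 10446 in ZR and 17283 and 11536 in EV, with overlapping ranges, and was missing from both ZR_DMSO libraries and from ZR_GSK343 replicate 1, which have the shortest lists. The best peak was widest in DMSO_50K. Its width was 3343 and 2417 bp in DMSO_50K, 410 and 554 bp in Citraconate_50K, 1208 and 1037 bp in ZR, and 607 and 416 bp in EV. These widths are of the best peak alone. In the equal lists of ZR and EV, ZR replicate 2 and EV replicate 2 had a further, separate peak in this region. As deposited, other libraries too, both of Citraconate_50K among them, had more peaks than regions in the Six4 window. The whole Six4 window held 7 and 7 peaks in Citraconate_50K and 5 and 7 in DMSO_50K. Counts over the whole window do not tell how much sequence was open at this site. The width of a best peak alone does not tell it either, so a narrower one need not mean less.

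The 3 gained regions of the Six4 window lay away from its start site. The strongest, inside Mnat1 and centred 33.9 kb upstream of Six4 (chr12:73146804-73147916), ranked 5590 and 5407 in ZR and had no peak in EV. ZR_dmCitra ranked it 10694 and 11808, while ZR_DMSO had it in replicate 2 alone at 15682 and ZR_GSK343 in replicate 2 alone at 18739. In Citraconate_50K it ranked 8852 and 6789, poorer than 2176 and 3858 in DMSO_50K (exact permutation p = 0.333). A further region inside Mnat1 (chr12:73162515-73163389) ranked 15995 and 22472 in ZR, and one 10.4 kb beyond the other end of Six4 (chr12:73088562-73089203) 21690 and 20028, with no EV peak at either.

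The Six5 window had 0 gained and 0 lost of 4 regions in ZR against EV, beside the 21.5% and 19.6% of all regions, a difference that 4 regions are too few to show. Its window held all 3 of the 51 regions with a peak in all 14 libraries, a property of 4.05% of all regions. The start-site region (chr7:19092565-19096952) runs from the near end of Dmpk into Six5, and its summit lay 359 to 634 bases upstream of the Six5 start in every library, beyond the annotated end of Dmpk. The 250 bases directly upstream of the Six5 start were covered by a peak in 12 libraries, not in ZR_GSK343 replicate 1 or ZR_DMSO replicate 2. The region ranked 5981 and 5771 in ZR and 3614 and 5388 in EV. The width of its best peak was 1939 and 2181 bp in ZR, 2053 and 3329 bp in EV, 354 and 1732 bp in ZR_GSK343, 1159 and 3349 bp in ZR_dmCitra and 451 and 335 bp in ZR_DMSO. It reached 3309 and 3435 bp in Citraconate_50K and 3768 and 4035 bp in DMSO_50K, where it was wider than 99.9% of the peaks in both lists. In 10 of 14 libraries it was wider than 98% of the library's peaks, and the 4 others were ZR_DMSO, ZR_GSK343 replicate 1 and ZR_dmCitra replicate 1.

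**Figure D4:**
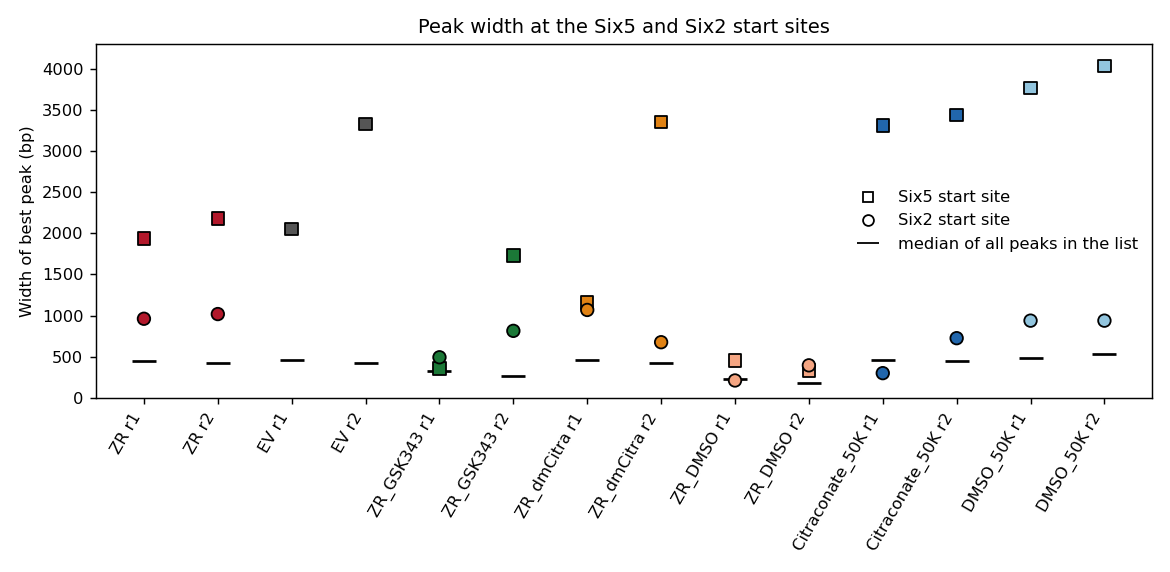
Width in bp of the best peak at the Six5 (squares) and Six2 (circles) start sites in each library, with the median width of all peaks in that list as a dash. The Six5 peak reaches 4035 bp in DMSO_50K and stays at 335 to 451 bp in ZR_DMSO, and no circle stands in the EV columns.

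The other regions present in every library were at neighbours of Six5. A region at an end of Dmwd (chr7:19075596-19076995) ranked 10813 and 8573 in ZR, poorer than 5216 and 4824 in EV. One inside Fbxo46 (chr7:19130813-19132069) ranked 6183 and 5771 in ZR, poorer than 2629 and 1100 in EV (exact permutation p = 0.333 for each). Of the 7 regions at Six2 to Six6 in all 4 equal lists, 4 had both ZR ranks poorer than both EV ranks, all of them in the Six5 window, and 0 had both better, against 44% and 27.5% of all such regions.

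All 10 regions gained in ZR against EV had a peak in both DMSO_50K libraries, although these carry the Empty Vector label. Across all 13409 gained regions, 77.9% were in both DMSO_50K libraries. Of the same 10, 6 were in both ZR_dmCitra libraries (80.3% of all gained regions), 3 in both of Citraconate_50K (35.2%), 2 in both of ZR_GSK343 (7.04%) and 2 in both of ZR_DMSO (13.8%). The last 2 groups include the short lists.

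In the other comparisons at equal list length, few regions at Six2 to Six6 were available to be gained or lost. Counts on so few regions are not read as differing from the shares of all regions beside them. In ZR_GSK343 against ZR_DMSO, 0 of 10 regions at these genes were gained and 1 lost, the region upstream of Six6, against 10.5% gained and 7.66% lost of all 22254 regions. The windows held 6 and 6 peaks in ZR_GSK343 and 7 and 6 in ZR_DMSO (exact permutation p = 1). Of 4 regions in all 4 lists, the Six2 start site had both ZR_GSK343 ranks poorer and the region at Dmwd both better, against 23.7% and 29.6% of all such regions. The loss at Six6 was not called when peaks tied at the end of the reduced list were left out, because the peak of ZR_DMSO replicate 2 was among them, and without that library 2 regions were lost. With ZR as the control, 0 of 16 were gained (background 7.46%) and 2 lost (13.8%), again the region upstream of Six6 and the region 16.8 kb upstream of Six2.

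In ZR_dmCitra against ZR_DMSO, 1 of 9 regions at Six2 to Six6 was gained and 1 lost, against 12% gained and 7.42% lost of all 20405 regions. The gained one was the region in Mnat1 and the lost one the region upstream of Six6. Each depends on list length: as deposited, ZR_dmCitra had the Six6 region and ZR_DMSO replicate 2 the Mnat1 region, and 11 other regions were gained there, with lists of very unequal length. No share of all regions is given for the lists as deposited. The windows held 7 and 6 peaks in ZR_dmCitra and 7 and 6 in ZR_DMSO. Of 5 regions in all 4 lists, 1 had both ZR_dmCitra ranks poorer and 2 both better, against 20% and 35.1% of all such regions. Against ZR, whose lists are as long, 1 of 29 was gained (background 4.9%), a region inside Bhmg1 (chr7:19103833-19104324) at ranks 21086 and 19627 that no other group had, and 2 were lost (5.19%), the Six3 start site and the region 16.8 kb upstream of Six2.

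In Citraconate_50K against DMSO_50K, 0 of 17 regions at Six2 to Six6 were gained and 0 lost, against 9.06% gained and 16.5% lost of all 46259 regions, and 8 were in all 4 lists. Libraries of Citraconate_50K had 16 and 13 peaks in the windows and those of DMSO_50K 13 and 15 (exact permutation p = 1). Of the 8 shared regions, 6 had both Citraconate_50K ranks better and 2 poorer, against 47.6% and 24.2% of all regions in the 4 lists. The 2 were the Six2 start site and the region in Mnat1. As deposited, where the DMSO_50K lists are longer, 7 regions were lost, with no share of all regions given for that setting.

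The genes of the Eya and Dach partners were followed by peaks within 1 kb of either gene end. In ZR against EV, Dach1, a corepressor, was gained and none of the 6 was lost, against 3.05% of 12001 protein-coding genes gained and 6.9% lost. Its best peak ranked 3590 and 3195 in ZR, was absent from EV, and ranked 10017 and 12202 in ZR_GSK343, 3311 and 4846 in ZR_dmCitra, 7638 and 5609 in ZR_DMSO, 4379 and 11860 in Citraconate_50K and 2624 and 3060 in DMSO_50K. Dach1 thus had a gene-end peak in all 12 libraries outside EV, like Six2, a pattern of 23 of 13912 genes (0.165%) that was picked out for Dach1 after its values were seen. Dach2 was also absent from EV and present in ZR at 27526 and 44077, too weak for the equal lists in replicate 2. The coactivator genes Eya1, Eya3 and Eya4 were open in both groups, at poorer ranks in ZR. Eya1 ranked 13255 and 11846 in ZR and 8228 and 5830 in EV, and Eya3 25854 and 30922 against 9849 and 17231. Eya4 ranked 14547 and 18054 in ZR and 5216 and 4187 in EV. Both ZR ranks were likewise poorer in 44% of all regions in the 4 equal lists, a share over regions and not over genes. Eya2 had a peak in EV replicate 2 and ZR_GSK343 replicate 2 alone.

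**Figure D5:**
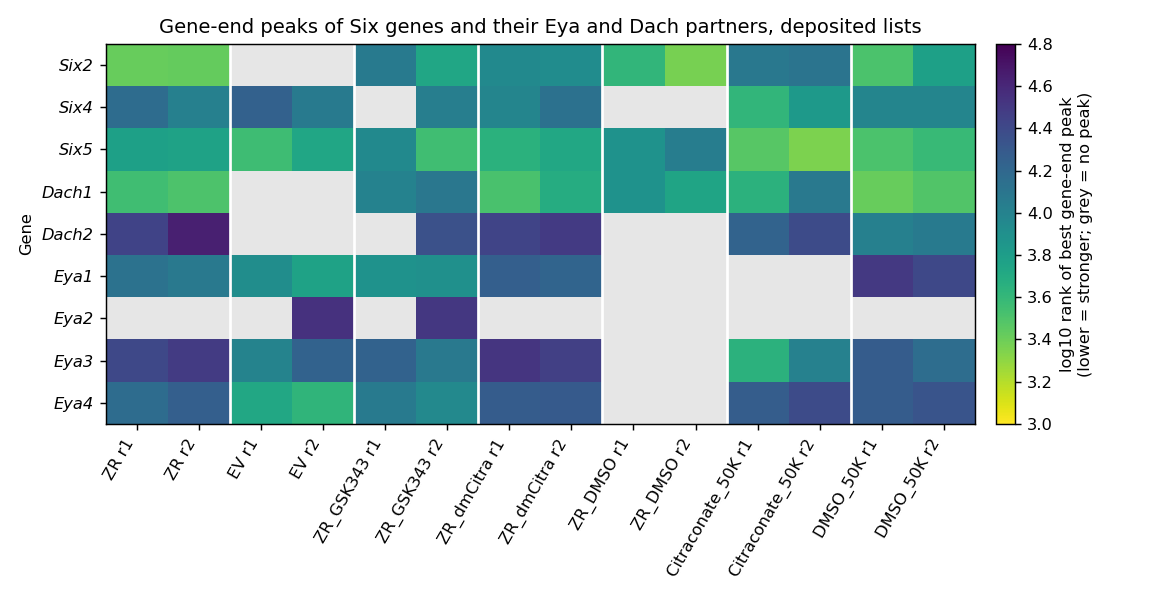
Log10 rank of the best gene-end peak in each deposited list (lower is stronger, grey is no peak) for Six2, Six4 and Six5 and their Dach and Eya partners. Six2 and Dach1 are grey in both EV columns alone, and ZR_DMSO has peaks at Six2, Six5 and Dach1 alone.

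In ZR_GSK343 against ZR_DMSO, Eya1 and Eya4 were gained of 4 partners with a peak, against 20.5% of 9734 genes gained and 0.39% lost. Eya1 ranked 7663 and 7820 in ZR_GSK343 and Eya4 11401 and 8979, with no peak in ZR_DMSO, although ZR had both genes at 13255 and 11846 and at 14547 and 18054. None of the partners was gained or lost in ZR_dmCitra against ZR_DMSO (1 with a peak, background 11.7% gained and 1.56% lost) or in Citraconate_50K against DMSO_50K (5 with a peak, background 7.31% and 1.48%). Of 6 Groucho corepressor genes, Tle1, Tle3 and Tle4 had a gene-end peak in the equal lists, and none was gained or lost in any of the 4 comparisons. Tle4 ranked near the top of the lists, at 124 and 141 in ZR and 372 and 293 in EV. Tle1 went the other way, at 1325 and 1234 in ZR and 93 and 95 in EV. Tle3 overlapped between the groups, at 11230 and 12375 in ZR and 22287 and 9297 in EV.

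Genes that work with Six2, Six3, Six4 or Six6 elsewhere showed no common direction. Of 11 genes of the nephron progenitor network, 4 had a peak in the equal lists of ZR and EV and 1 was lost, Wnt4, a signal for nephron formation, which ranked 24446 and 20656 in EV. That count of 1 of 4 stands beside 6.9% of all protein-coding genes with a peak lost in ZR against EV and 3.05% gained. Sall1, a nephron progenitor factor, was gained in ZR_dmCitra against ZR_DMSO at 11591 and 10802, and ranked 11230 and 10911 in ZR (1 of 2 genes with a peak, beside 11.7% of all genes gained). Of 10 eye and forebrain genes, 5 had a peak and 1 was lost in ZR against EV: Wnt8b, a gene that Six3 represses in the mouse forebrain, ranked 18746 and 15453 in EV (1 of 5, beside the same 6.9%). Wnt8b was also lost in Citraconate_50K, against 19626 and 14906 in DMSO_50K, where Lhx2, an eye field factor, was gained at 14081 and 15165, against 40130 and 36733 in the full DMSO_50K lists (1 lost and 1 gained of 5, beside 1.48% and 7.31% of all genes). Rax, an eye field factor, was gained in ZR_GSK343 at 4469 and 9213 and in ZR_dmCitra at 4329 and 5647, against no peak in ZR_DMSO, and ranked 6183 and 5588 in ZR. It was 1 gained of 4 in each of these comparisons, beside 20.5% of all genes gained in ZR_GSK343 and 11.7% in ZR_dmCitra. None of 7 skeletal muscle genes linked to Six4 had a gene-end peak in the equal lists.

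Likeness to other genes was measured as Spearman's rho of gene-end peak strength over the 14 libraries, each list reduced to the shortest, among 10781 genes, as a description in which all points share the libraries and their depths. Six2 was most like Osbpl2 (0.91), Mybl2 (0.894) and Xkr5 (0.854). For Six4, Dusp7 (0.897) and Sipa1l1 (0.872) were among the 3 most alike. Six5 was most like Gm2a (0.952) and Icmt (0.934) after Dmpk (1), with which it shares its peak. Six3 and Six6 had no gene-end peak in these reduced lists. The Six3 start site used above (chr17:85620834) lies inside the annotated gene body (chr17:85613608-85626191), more than 1 kb from either end. Gene-end peaks of Six3 therefore do not cover that start site.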

How the data were processed

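The labels' protocols state paired 50 nt reads. The submitters' processing notes name the build mm10 and the tools BWA, SAMtools and Picard. The authors called peaks with MACS2 in each library separately, as the deposited peak names show. Its version and settings, and whether reads were shifted for Tn5, were not given in the sources used here. The authors deposited for every peak a score, a fold over background (a ratio), a −log10 p-value and a −log10 q-value. These served only to order and filter the peaks of a single list. Without read counts the depth is unknown, and no counting interval is given. Of the peaks, 99.4% to 99.9% share their q with another.

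Chromosomes 1 to 19, X and Y were used. In each comparison the 4 lists were cut by −log10 q to the shortest length, with all peaks tied at the end kept, and overlapping peaks (at least 1 bp) merged. Start sites and upstream sequences came from the RefSeq promoter table, gene bodies from the RefSeq gene table (GRCm38.p6), which gives no exons, so exonic, intronic and UTR positions are not given. All 65 list genes matched it. Python 3.11.15, pandas 2.3.3, NumPy 2.4.6 and SciPy 1.17.1 were used, and the calling was tested on simulated lists. Tests were two-sided exact permutations. Named genes were the members, neighbours under gained or lost regions or under the strongest region of a window, up to 4 gained and 4 lost genes per list, Eya1 to Eya4, Dach1 and Dach2, and the 3 genes most like each member, of which 1 is not reported here; the Tle examples and Dmwd were chosen after their values were seen. Members and lists were chosen with earlier results of these data known. Alternatives were lists as deposited or all at the shortest length, −log10 q of at least 5, cutting by fold, 50% cover, windows of 20 and 100 kb, ZR in place of ZR_DMSO, leaving out each library and, added after seeing the data, leaving out tied peaks.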

Additional observations from a re-analysis of the deposited data

Results flagged for a closer look

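Only 9 of the 51 regions were in the equal lists of ZR_dmCitra and ZR_DMSO, so the others could not be compared in both pairs. Of the 9, only the region in Mnat1, 33.9 kb upstream of Six4, had ranks that went opposite ways with citraconate in the 2 pairs. In ZR_dmCitra it ranked 10694 and 11808, better than in ZR_DMSO, where it was outside the equal lists and was given the rank after the last (a mean difference of -1140). In Citraconate_50K it ranked 8852 and 6789, poorer than 2176 and 3858 in DMSO_50K (a mean difference of 4803.5). The difference between the pairs was not tested. The cell line labels of Citraconate_50K and DMSO_50K differ, and ZR_DMSO lists are short. In the lists as deposited, the region at the far end of the Six2 body also went opposite ways in presence. Both ZR_dmCitra and both DMSO_50K libraries had it, and no ZR_DMSO or Citraconate_50K library did.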

How the results depend on the processing

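The lists give no counts, each group has 2 libraries, and no exact test could reach the 0.05 threshold. Apart from ZR in place of ZR_DMSO, the alternative settings are given without the share of all regions. Their counts show dependence on the setting and cannot be set against a background. Of the 10 gains in ZR against EV, 3 were left at the length of the shortest list, those at the Six2 start site, 16.8 kb upstream of Six2 and 33.9 kb upstream of Six4 in Mnat1. These were also called as deposited, at −log10 q of at least 5, by fold, at 50% cover, without tied peaks and without each library; the region in Mnat1 lies outside windows of 20 kb, where 8 gains were counted, and the gain 2.85 kb beyond Six3 was also not called at 50% cover. Leaving out each library gave 10 to 12 gained and 0 to 1 lost regions. In ZR_GSK343 against ZR_DMSO, gains numbered 2 as deposited, 1 at −log10 q of at least 5, 2 at 50% cover, 1 in windows of 100 kb and 0 to 2 leaving out each library; losses numbered 0 without tied peaks, 2 with ZR as control and 1 to 2 leaving out each library; the peak difference of -0.5 turned to 10.5 as deposited, 8.5 at −log10 q of at least 5 and 0.5 in windows of 100 kb. In ZR_dmCitra against ZR_DMSO, gains numbered 11 as deposited, 11 at −log10 q of at least 5, 5 at 50% cover, 0 in windows of 20 kb, 2 in windows of 100 kb and 1 to 2 leaving out each library. Losses there numbered 0 in the first 2 of these settings and without tied peaks, 2 with ZR as control and 1 to 2 leaving out each library. The peak difference of 0 became 13, 15, 1.5 without tied peaks and -3.5 with ZR as control. In Citraconate_50K against DMSO_50K, losses numbered 7 as deposited, 2 at the shortest length, 8 at −log10 q of at least 5, 5 at 50% cover, 1 in windows of 100 kb and 1 to 3 leaving out each library, and gains 2 in windows of 100 kb and 0 to 2 leaving out each library. The peak difference of 0.5 turned to -9 as deposited, -2 at the shortest length, -9.5 at −log10 q of at least 5, and ran between -1 and 2 leaving out each library. Lists as deposited differ in length by construction, and otherwise the cause was not tested. Replicate numbers did not pair the libraries, with correlations of 0.019, 0.044, -0.014 and -0.017 between same-numbered deviations in the 4 comparisons. With the replicate number as a block the counts of gained and lost regions and the peak differences (9, -0.5, 0 and 0.5) were those without it, and the smallest p was 0.5.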
